A study of Mus musculus with 12 samples.

Results

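The genes described are the 31 constitutive subunits of the 26S proteasome, the complex that degrades most ubiquitin-tagged protein in the cytosol and nucleus. They were taken by symbol: Psma1 to Psma7 and Psmb1 to Psmb7 of the 20S core, Psmc1 to Psmc6 of the 19S base, and 11 Psmd genes of the 19S base and lid. All 31 were measured and passed the filter on dim probes, among 19317 genes and transcripts tested (12657 of them with a symbol). The arrays came from BV-2 cells, an immortalised mouse microglial line, in 4 groups of 3: untreated cells, and cells that received 20 µM curcumin (a polyphenol from turmeric), 100 ng/ml LPS (bacterial lipopolysaccharide, a ligand of Toll-like receptor 4), or both agents for 6 h. The labels state no vehicle and no time for the untreated cells, and they do not say whether replicates were separate cultures, so the p-values measure the spread between these samples, which may be technical. Each replicate number lies on a slide of its own with 1 array of every group, always at the same position, so group and position on the slide cannot be told apart.

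The 20S core is a barrel of 4 stacked rings: the outer alpha rings form the gate and the inner beta rings hold the proteolytic sites. The 19S cap has a base, whose ATPases unfold substrates and open the gate, and a lid, which removes ubiquitin chains. Subunit genes are known to be transcribed together, with Nfe2l1 as the main activator when proteasome activity falls and Nfe2l2 as an activator under oxidative stress. In macrophages and microglia the complex degrades the inhibitor proteins of NF-kB after Toll-like receptor signalling, and interferon replaces its catalytic subunits with those of the immunoproteasome.

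Levels are log2 signals, given on 2 scales. On the 75th percentile scale each array's signal is set against the 75th percentile of its own non-control spots. On the spike-in scale it is set against 7 probes for the control transcripts of Agilent's spike-in kit. The percentile lay 0.98 to 1.30 (log2) below the spike-in mean in untreated cells and 2.05 to 2.36 below it in curcumin-treated cells, so the scales give different signs for many genes. A change was called where limma's adjusted p (Benjamini-Hochberg over all 19317) was below 0.05.

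One array of the group given both agents, LPS+curcumin replicate 1, resembled the LPS arrays more than its fellow replicates. Its levels over all tested genes correlated at 0.98 with the LPS arrays and at 0.95 with the curcumin arrays, against 0.94 and 0.98 for replicate 2. Its 75th percentile lay 1.36 below the spike-in mean, against 2.33 and 2.62 in replicates 2 and 3. The medians of the comparisons that use it are therefore given with and without it, and changes of single genes where stated. LPS+curcumin replicate 2 had 1594 spots marked as outliers, against 87 to 163 on the other arrays.

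As checks on the labels, Hmox1, the curcumin-inducible haem oxygenase, lay at 4.23 to 5.30 on untreated arrays, at 8.37 to 8.78 with curcumin, at 5.28 to 5.85 with LPS and at 8.56 to 9.05 with both (75th percentile scale). Il6, a cytokine induced by LPS, lay at 3.72 to 4.78 with LPS and at -6.46 to -5.88 in untreated cells. With both agents it lay at 0.86, -2.76 and -3.95, the first value being that of replicate 1. Of 13 microglia and macrophage markers, 12 were on the array and all 12 were well above background on every untreated array. With curcumin Cx3cr1 and Tmem119 were called lower (-2.19 and -1.11), Cx3cr1 being well above background on 2 of the 3 curcumin arrays. With both agents Cx3cr1 was well above background on 1 array. P2ry12 was well above background on 1 curcumin, 0 LPS and 0 LPS+curcumin arrays. Of 27 markers of other cell types, 26 were on the array and 11 were tested, and 13 were well above background on no untreated array. Pecam1, Rbfox3, Cd3e and S100a8 were called higher with curcumin, Pecam1 being well above background on 0 untreated and 3 curcumin arrays. The summed linear level of these other markers was 0.72 to 0.99 times the array's 75th percentile in untreated cells and 1.12 to 1.78 times with curcumin, against 212 to 349 and 292 to 410 for the microglia list. The part of these markers in the proteasome values was not tested, and in bulk RNA fewer cells of a type and less RNA per cell cannot be told apart.

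Promoter sequences are shown for members whose upstream bases hold the motifs linked to the activators above, and for the members with the highest curcumin changes. RefSeq promoters (assembly GRCm38.p6, 250 bases before to 50 after each start) matched 25 of the 31 members, with 27 promoters. Psmb1, Psmb2, Psmb7, Psmc3, Psmd3 and Psmd7 had no entry. The core of the antioxidant response element, TGACNNNGC, which Nfe2l1 and Nfe2l2 bind with small Maf proteins, was found on either strand in 4 of the 27 member promoters (14.8%) and in 12.4% of the 32851 promoters in the table. The 4 were those of Psmb5 (chr14:54617996-54618245, minus strand), Psmb6 (chr11:70525107-70525356, plus strand), Psmc6 (chr14:45329574-45329823, plus strand) and Psmd12 (chr11:107479278-107479527, plus strand). Their 250 upstream bases are printed 5′ to 3′ with the core in capitals.

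Psmb5: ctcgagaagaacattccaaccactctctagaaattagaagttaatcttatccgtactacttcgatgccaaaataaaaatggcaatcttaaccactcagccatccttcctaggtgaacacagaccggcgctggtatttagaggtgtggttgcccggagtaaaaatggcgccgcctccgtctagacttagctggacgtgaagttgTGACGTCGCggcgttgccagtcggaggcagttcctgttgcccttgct

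Psmb6: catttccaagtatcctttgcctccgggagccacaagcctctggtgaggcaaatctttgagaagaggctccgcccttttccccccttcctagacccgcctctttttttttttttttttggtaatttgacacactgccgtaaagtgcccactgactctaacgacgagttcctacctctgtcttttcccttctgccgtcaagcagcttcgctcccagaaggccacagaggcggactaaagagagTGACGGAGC

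Psmc6: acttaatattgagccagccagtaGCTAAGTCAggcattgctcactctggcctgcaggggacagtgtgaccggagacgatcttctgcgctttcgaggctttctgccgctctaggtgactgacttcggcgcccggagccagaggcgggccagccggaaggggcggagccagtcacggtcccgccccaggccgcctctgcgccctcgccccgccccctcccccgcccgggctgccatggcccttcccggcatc

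Psmd12: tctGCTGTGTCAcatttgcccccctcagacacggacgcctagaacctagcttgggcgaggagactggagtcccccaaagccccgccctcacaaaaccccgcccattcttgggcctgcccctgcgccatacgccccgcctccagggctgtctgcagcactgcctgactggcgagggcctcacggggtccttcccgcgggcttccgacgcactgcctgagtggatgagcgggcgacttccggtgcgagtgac

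The other motifs were searched on both strands in the same way, and matches of different motifs overlapped in 0 of the 27 member promoters. TTCCGG, the core bound by ETS-family factors, was in 15 of the 27 member promoters (55.6%) and in 14.9% of all promoters. GGGCGG, the GC box, was in 15 of 27 (55.6%) against 35.7%. CCAAT, the box bound by NF-Y, was in 10 of 27 (37.0%) against 37.4%. Psmc2 (chr5:21785025-21785274, plus strand, the more upstream of its 2 starts) and Psmd4 (chr3:95042615-95042864, minus strand) are printed with CCAAT and TTCCGG in capitals on either strand. In the Psmd4 promoter the TTCCGG matches of the 2 strands overlap.

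Psmc2: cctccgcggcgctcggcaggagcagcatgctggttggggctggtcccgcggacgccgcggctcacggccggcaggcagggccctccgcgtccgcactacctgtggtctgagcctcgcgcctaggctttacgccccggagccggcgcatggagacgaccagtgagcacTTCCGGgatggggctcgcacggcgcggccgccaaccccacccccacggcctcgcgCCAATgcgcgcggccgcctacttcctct

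Psmd4: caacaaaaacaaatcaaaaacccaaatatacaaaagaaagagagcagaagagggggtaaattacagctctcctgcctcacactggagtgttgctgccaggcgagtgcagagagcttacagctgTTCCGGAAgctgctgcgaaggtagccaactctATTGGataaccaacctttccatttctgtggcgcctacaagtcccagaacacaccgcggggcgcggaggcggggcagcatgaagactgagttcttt

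These matches are a description of letters in a window and were not tested against the expression values. Among the members with the antioxidant core, Psmb5 and Psmb6 were called higher with curcumin on the 75th percentile scale, and Psmc6 and Psmd12 were not. Over all tested genes 21.9% were called higher there. Psmc2 and Psmd4 were printed because their curcumin changes were the highest, so their calls say nothing about the motif.

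With all arrays on the 75th percentile scale, curcumin alone gave the most called members of the 6 comparisons, and the direction of the changes depended on the scale. On the 75th percentile scale all 31 members had changes above 0, from 0.13 for Psmd7 to 0.94 for Psmd4, with a median of 0.73, and 15 were called higher and 0 lower. Over all tested genes 21.9% were called higher, and the median change was 0.41. On the spike-in scale all 31 members had changes below 0, with a median of -0.38, and 2 were called lower and 0 higher. There 42.4% of all genes were called lower, and the median of all genes was -0.69. The 75th percentile scale called 4225 genes higher and 1405 lower, and the spike-in scale 1392 higher and 8199 lower. The members' median lay 0.31 above that of all tested genes. Both scales give this gap because each shifts a whole array by 1 value, so their agreement is no separate evidence. This gap was 0.16 with quantile scaling and 0.011 over the 32665 genes measured with no filter on dim probes. The members' median was 0.16 with quantile scaling, 0.63 with the percentile taken over always detected probes and -0.11 with median scaling. With normexp background correction it was -0.08, a difference of -0.49 from that of all genes.

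**Figure D1:**
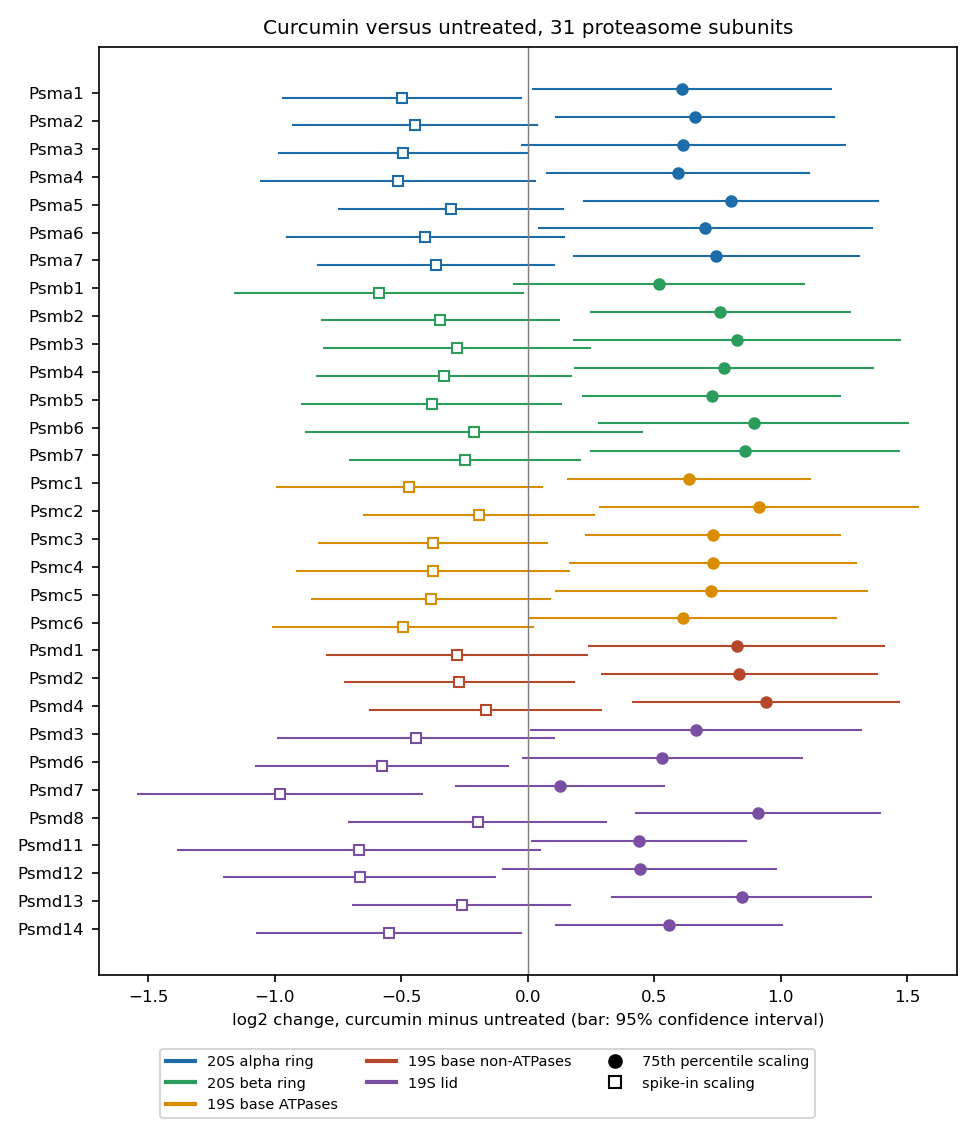
Log2 change with curcumin (curcumin minus untreated, horizontal axis) of the 31 proteasome subunits, with 95% confidence intervals from limma, coloured by subcomplex; filled circles are the 75th percentile scale and open squares the spike-in scale. All 31 circles lie right of 0, all 31 squares lie left of 0, and Psmd7 is the lowest on both.

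The members' changes were close to each other. Their standard deviation was 0.17, against 1.22 over all tested genes, and their median stood at the 70.8th percentile of all changes. The members are bright genes, 30 of 31 being among the 4830 brightest genes tested. For those 4830 the median curcumin change was 0.43 and 13.8% were called higher on the 75th percentile scale, against 49.1% called lower on the spike-in scale. The standard deviation of changes among these bright genes was not computed. The narrow spread of the members therefore cannot be called particular to the family. The curcumin and untreated arrays did not overlap for 30 members on the 75th percentile scale, all higher with curcumin, against 47.5% of all genes. Spike-in scaling left 21 members lower without overlap, against 61.4% of all genes.

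On each slide the curcumin array was above the untreated array for all 31 members on the 75th percentile scale, with median differences of 0.61, 0.61 and 0.95. On the spike-in scale the median differences were -0.46, -0.59 and -0.11, with 31, 31 and 24 members below 0. With the slide as a block, 21 members were called higher (31.2% of all genes) and 2 lower on the spike-in scale (48.9% of all genes). Without LPS+curcumin replicate 1, which enters only through the shared estimate of spread, 26 members were called higher (36.8% of all genes) and 9 lower on the spike-in scale (55.1% of all genes). The count of 15 also fell to 3, 0 and 1 without untreated replicates 1, 2 and 3, to 3, 2 and 0 without curcumin replicates 1, 2 and 3, and to 6, 5 and 6 without LPS replicates 1, 2 and 3. Over these 9 omissions 11.1% to 18.8% of all genes were called higher. It was 9 and 28 without LPS+curcumin replicates 2 and 3, against 19.6% and 36.5% of all genes. None of the 15 was called under all 12 omissions of a single array, and no member was called in 1 direction on all 5 scalings tried.

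**Figure D2:**
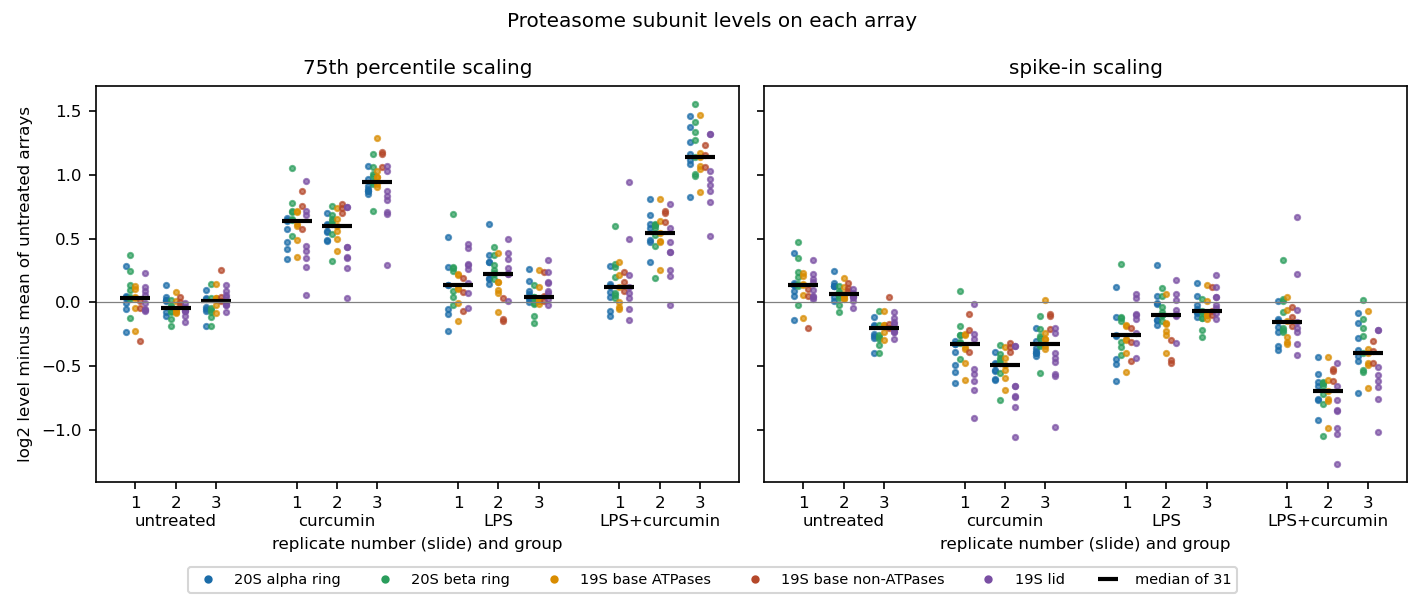
Level of each of the 31 subunits on each array (vertical axis, log2 level minus the subunit's mean on the untreated arrays) by group and replicate number, on the 75th percentile scale (left) and the spike-in scale (right); each point is a subunit, coloured by subcomplex, and the black bar is the median of 31. The curcumin arrays lie above 0 on the left and mostly below 0 on the right, and LPS+curcumin replicate 1 lies near the LPS arrays on both.

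In the alpha ring 2 of 7 members were called higher with curcumin (Psma5 and Psma7), against 21.9% of all tested genes. The ring had a median change of 0.66 and a range of 0.59 to 0.80. Differences between subcomplexes in the counts called were not tested. Psma5 lay at 7.08, 6.97 and 7.07 on the untreated arrays and at 7.69, 7.74 and 8.11 on the curcumin arrays, all higher (0.80 ± 0.26 SE, adjusted p = 0.0429). Psma7 rose from 6.76, 6.73 and 6.65 to 7.38, 7.32 and 7.68 (0.74 ± 0.26, adjusted p = 0.049). Psma4, whose tail is part of the closed gate, had the smallest change of the ring (0.59 ± 0.24, adjusted p = 0.0743). With spike-in scaling the 7 members had a median change of -0.45, and 0 were called, against 42.4% of all genes called lower.

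The beta ring carries the active sites, and 5 of its 7 members were called higher (21.9% of all genes): Psmb2, Psmb4, Psmb5, Psmb6 and Psmb7. The last 3 are the catalytic subunits. Psmb6, which cleaves after acidic residues, lay at 6.97, 6.41 and 6.41 in untreated cells and at 7.65, 7.28 and 7.54 with curcumin, without overlap (0.89 ± 0.28, adjusted p = 0.0353). Psmb7, which cleaves after basic residues, changed by 0.86 ± 0.28 (adjusted p = 0.0404), and Psmb5, which cleaves after hydrophobic residues, by 0.73 ± 0.23 (adjusted p = 0.0385). Psmb2, a structural subunit, rose from 2.53, 2.52 and 2.46 to 3.14, 3.15 and 3.49 (0.76 ± 0.23, adjusted p = 0.0334). The 3 catalytic subunits had spike-in changes of -0.21, -0.25 and -0.38 and were not called there. The Psmb6 arrays then overlapped, at 5.98, 5.44 and 5.11 in untreated cells and 5.60, 5.11 and 5.18 with curcumin.

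Of the 6 base ATPases, 3 were called higher (Psmc1, Psmc2 and Psmc3), against 21.9% of all genes, with a median change of 0.73. Psmc2 lay at 5.67, 5.56 and 5.66 in untreated cells and at 6.35, 6.37 and 6.92 with curcumin (0.91 ± 0.29, adjusted p = 0.0364). Psmc3 lay at 3.81, 3.87 and 3.89 and then at 4.47, 4.46 and 4.84 (0.73 ± 0.23, adjusted p = 0.036). In both the groups did not overlap. The 3 base subunits without ATPase activity were all called: Psmd1 and Psmd2, the large scaffold subunits, by 0.83 ± 0.27 and 0.84 ± 0.25 (adjusted p = 0.04 and 0.0297), and Psmd4, a ubiquitin receptor. Psmd4 lay at 4.68, 4.65 and 4.68 in untreated cells and at 5.55, 5.44 and 5.85 with curcumin, a 1.92-fold difference (0.94 ± 0.24, adjusted p = 0.0163). Against the spike-in probes Psmd4 lay at 3.69, 3.68 and 3.38 and at 3.50, 3.27 and 3.49, which overlap (-0.17 ± 0.21, adjusted p = 0.495).

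The lid had the widest range of changes, 0.13 to 0.91, with a median of 0.55. In it 2 of 8 members were called higher (Psmd8 and Psmd13), against 21.9% of all genes. Psmd8 lay at 4.30, 4.07 and 4.16 in untreated cells and at 5.13, 4.92 and 5.21 with curcumin (0.91 ± 0.22, adjusted p = 0.0132, the smallest of the family). Psmd13 changed by 0.85 ± 0.23 (adjusted p = 0.0225). Psmd14, the deubiquitinase of the lid, changed by 0.56 ± 0.20 (adjusted p = 0.058). Psmd11, which bridges lid and core, lay at 5.50, 5.50 and 5.71 and at 5.85, 5.92 and 6.26 (0.44 ± 0.19, adjusted p = 0.0964).

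Psmd7, the inactive partner of Psmd14, had the smallest change with curcumin on the 75th percentile scale. It lay at 4.36, 4.36 and 4.50 in untreated cells and at 4.46, 4.44 and 4.70 with curcumin, which overlap (0.13 ± 0.19, adjusted p = 0.595). Its change lay between the 35th and 36th percentiles of all tested genes. Against the spike-in probes Psmd7 fell from 3.37, 3.39 and 3.20 to 2.41, 2.26 and 2.34 (-0.98 ± 0.26, adjusted p = 0.012), a 1.97-fold decrease without overlap. Such falls were common on that scale. There the median of all genes was -0.69, 42.4% were called lower and 61.4% were lower without overlap. The level of Psmd7 minus the family median of the same array is the same on both scales, since each shifts a whole array by 1 value. It was -0.64, -0.71 and -0.65 in untreated cells and -1.09, -1.10 and -1.21 with curcumin. In LPS-treated cells it was -0.46, -0.61 and -0.70, and with both agents -0.75, -1.12 and -1.13, the first value being the array that stood apart. Its second probe changed by -0.18 on the 75th percentile scale and -1.28 on the spike-in scale. The only other member called lower on the spike-in scale was Psmd12 (-0.66 ± 0.24, adjusted p = 0.0413). The 2 other probes of Psmd12 changed by -0.85 and -0.90 there.

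**Figure D3:**
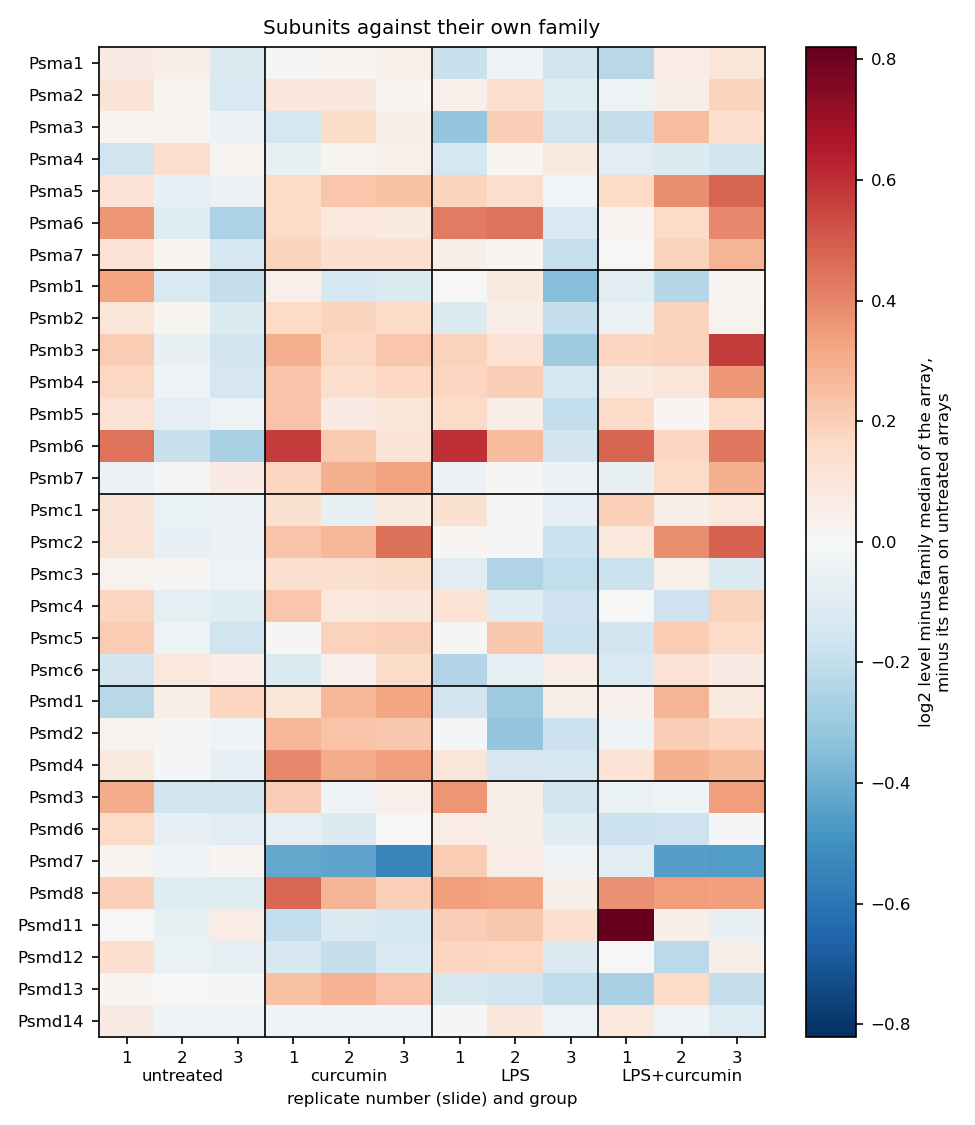
Level of each subunit minus the median of the 31 subunits on the same array, further centred on its mean over the untreated arrays (colour, log2), by array (columns) and subunit (rows, ordered by subcomplex). Psmd7 is low on all 3 curcumin arrays and on LPS+curcumin replicates 2 and 3, and Psmd11 is high on LPS+curcumin replicate 1.

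Within the family, Psmd7 moved by -0.47 with curcumin against the family median, and Psmd4, Psmc2, Psmd8 and Psmb6 moved by 0.35, 0.32, 0.32 and 0.30. Psmd14 was itself the median member on all 3 curcumin arrays, so its distance from the family median is 0 there by construction. These values describe the spread inside the family and were not tested.

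With LPS alone no member was called on either scale (limma, 0 of 31, and 0 with an unadjusted p below 0.05), where 5.73% of all genes were called in either direction on the 75th percentile scale and 3.21% on the spike-in scale. The changes ran from -0.03 for Psmc3 to 0.40 for Psma6, with a median of 0.16 against 0.01 for all tested genes and 0.16 for all genes with no filter on dim probes, and 28 of 31 were above 0. On the spike-in scale the median was -0.12 against -0.27. The outermost bounds of the members' 95% confidence intervals were -0.58 and 1.06 on the 75th percentile scale. The slide medians were 0.14, 0.29 and 0.07, and on the spike-in scale -0.35, -0.14 and 0.17.

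Psma6, an alpha ring subunit, lay at 6.09, 5.70 and 5.62 in untreated cells and at 6.32, 6.43 and 5.87 with LPS (0.40 ± 0.30, adjusted p = 0.694). Psmb6 lay at 7.29, 7.03 and 6.64 with LPS (0.39 ± 0.28, adjusted p = 0.662). Both overlapped with the untreated arrays. At the lower end, Psmc3 lay at 3.85, 3.78 and 3.84 with LPS (-0.03 ± 0.23) and Psmd2 at 5.51, 5.28 and 5.44 against 5.38, 5.43 and 5.47 (-0.02 ± 0.25).

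With LPS and curcumin together, set against untreated cells, 5 members were called higher on the 75th percentile scale, against 18.2% of all genes, and 4 lower on the spike-in scale, against 41.3%. The members' medians were 0.60 and -0.42, and those of all tested genes 0.32 and -0.70. With no filter on dim probes the median of all genes was 0.74 on the 75th percentile scale, above that of the members. The calls over all genes were 3518 higher and 1209 lower on the first scale and 1203 higher and 7984 lower on the second. The 5 were Psma5, Psmb6, Psmd4, Psmd8 and Psmd11. The 4 were Psmc3, Psmd6, Psmd7 and Psmd13.

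Psmb6 lay at 7.20, 7.20 and 8.01 with both agents (0.87 ± 0.28, adjusted p = 0.0417) and Psmd8 at 4.68, 4.95 and 5.50 (0.86 ± 0.22, adjusted p = 0.0195), both without overlap with untreated cells. Psmd11 lay at 6.51, 6.04 and 6.49 (0.78 ± 0.19, adjusted p = 0.0173). Its value on replicate 1 was high for that array, 1.32 above the family median, against 0.54 and 0.44 on replicates 2 and 3. At the lower end of the 75th percentile scale, Psmd7 lay at 4.44, 4.38 and 4.92 (0.18 ± 0.19, adjusted p = 0.488) and Psmd6, a lid subunit, at 4.05, 4.36 and 5.07 against 4.19, 4.04 and 4.09 (0.39 ± 0.25, adjusted p = 0.258). Both overlapped with untreated cells.

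Without LPS+curcumin replicate 1 the count became 27 of 31 higher (39.5% of all genes) with a median of 0.82, and 17 lower on the spike-in scale (61.6% of all genes) with a median of -0.57. Psmd8, Psmb6 and Psmd11 were then at 1.04 ± 0.20, 1.01 ± 0.29 and 0.70 ± 0.20 (adjusted p = 0.00184, 0.0144 and 0.0132). With the slide as a block it was 10 (25.2% of all genes). The slide medians were 0.10, 0.56 and 1.11, and on the spike-in scale -0.27, -0.79 and -0.21. The count of 5 fell to 2, 0 and 1 without untreated replicates 1, 2 and 3, to 2, 2 and 3 without curcumin replicates 1, 2 and 3, to 3, 2 and 3 without LPS replicates 1, 2 and 3, and to 1 and 2 without LPS+curcumin replicates 2 and 3. Over these 11 omissions 7.53% to 16.1% of all genes were called higher.

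Curcumin added to LPS, set against LPS alone, gave no called member with all arrays (limma, 0 of 31, 7 with an unadjusted p below 0.05), where 18.7% of all genes were called in either direction. With spike-in scaling 0 members and 16.8% of all genes were called, with 2 members at an unadjusted p below 0.05. The median changes were 0.46 and -0.28, against 0.32 and -0.41 for all tested genes, and 0.59 for all genes on the 75th percentile scale with no filter on dim probes. Without replicate 1 of the LPS+curcumin group 20 members were called higher (39.9% of all genes) with a median of 0.70, and 6 lower on the spike-in scale (46.5% of all genes) with a median of -0.41. With the slide as a block 1 member was called higher (20.1% of all genes). The slides differed, with medians of 0.01, 0.27 and 1.09 for the members and 0.01, 0.27 and 0.65 for all genes on the 75th percentile scale, equal to 2 decimals on slides 1 and 2. Without LPS+curcumin replicate 3 the members' median was 0.21, against 0.16 for all genes. The members' slide medians were 0.13, -0.64 and -0.33 on the spike-in scale.

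Psmc2 lay at 5.74, 5.79 and 5.64 with LPS and at 5.84, 6.44 and 7.10 with both agents, without overlap (0.74 ± 0.29, adjusted p = 0.0918). Without replicate 1 its change was 1.04 ± 0.24 (adjusted p = 0.00436), and on the spike-in scale -0.07 ± 0.21 (adjusted p = 0.804). Psmb3, a structural beta subunit, lay at 6.76, 6.78 and 6.38 and at 6.78, 7.10 and 8.04 (0.67 ± 0.29, adjusted p = 0.124), the lowest value with both agents lying just above the highest with LPS. Psmd7 and Psmd12 had the smallest changes (-0.05 ± 0.19 and 0.22 ± 0.25), and both overlapped. Psmd12 lay at 5.93, 6.01 and 5.74 with LPS and at 5.78, 5.87 and 6.70 with both. Without replicate 1, Psmd7 was at 0.02 ± 0.19 on the 75th percentile scale and at -1.09 ± 0.19 on the spike-in scale (adjusted p = 0.000499).

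LPS added to curcumin, set against curcumin alone, gave no called member on either scale (limma, 0 of 31, and 0 with an unadjusted p below 0.05), where 0.212% and 0.109% of all genes were called. The median change was -0.09, the same as for all tested genes to 2 decimals and against 0.04 for all genes with no filter, and it was 0.13 without replicate 1. Psmd11 (0.34 ± 0.19, adjusted p = 0.869) and Psmd7 (0.05 ± 0.19, adjusted p = 0.972) were highest. Psmd13 lay at 2.21, 2.25 and 2.56 with curcumin and at 1.36, 2.08 and 2.28 with both (-0.44 ± 0.23, adjusted p = 0.869). Psmc3 lay at 3.80, 4.33 and 4.72 with both (-0.31 ± 0.23, adjusted p = 0.875). Both sets of arrays overlapped. The values of 1.36 and 3.80 with both agents were those of replicate 1. Without that array the members' changes ran from -0.16 to 0.33.

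The interaction, the effect of curcumin in LPS-treated cells minus its effect in cells without LPS, was called for 0 of 31 members on either scale (limma, 0 with an unadjusted p below 0.05), where 0.73% of all genes were called on the 75th percentile scale and 0.29% on the spike-in scale. Its median over the members was -0.26 with all arrays, against -0.08 for all genes, and -0.04 without LPS+curcumin replicate 1. The sign turned with the processing: the members' median was 0.11 on the spike-in scale, against 0.29 for all genes, 0.02 with quantile scaling and 0.50 with normexp. With all arrays on the 75th percentile scale, the lowest values were those of Psmd8 (-0.44 ± 0.31) and Psmd13 (-0.42 ± 0.33). The highest were those of Psmd11 (0.0017 ± 0.27) and Psma3 (-0.10 ± 0.41). Without LPS+curcumin replicate 1 the members' values ran from -0.27 to 0.22. Psma3, an alpha ring subunit, lay at 4.58, 4.65 and 4.67 in untreated cells, at 4.97, 5.25 and 5.53 with curcumin, at 4.41, 5.01 and 4.66 with LPS and at 4.56, 5.31 and 5.75 with both.

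**Figure D4:**
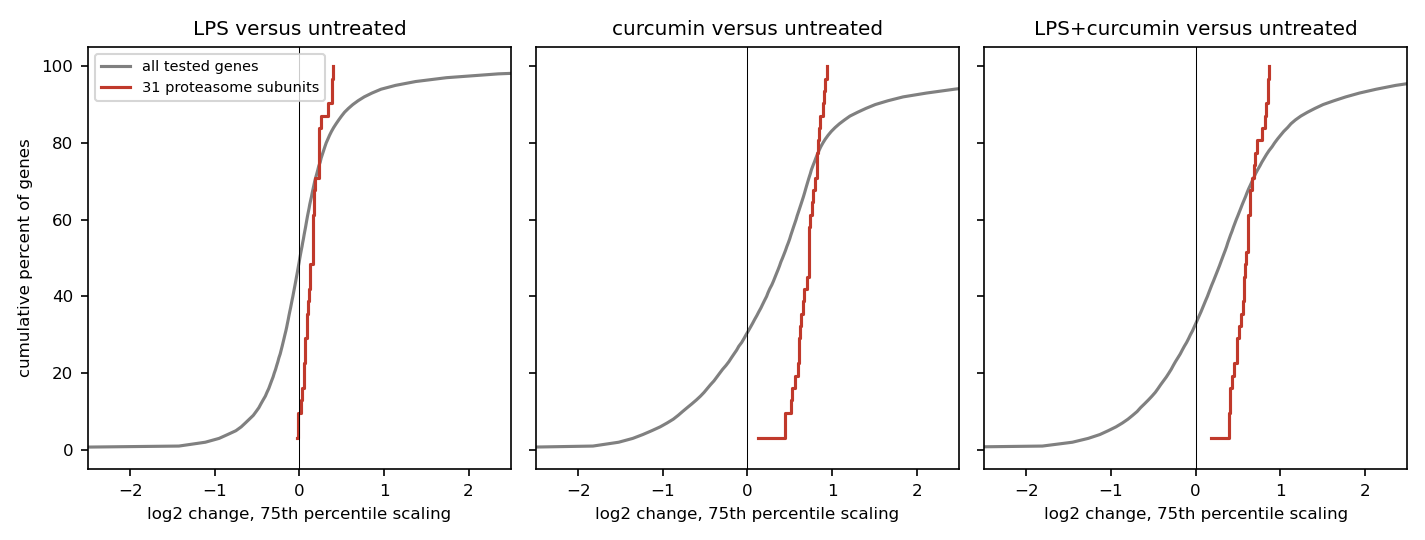
Cumulative percent of genes (vertical axis) by log2 change on the 75th percentile scale (horizontal axis) for 3 comparisons, with all 19317 tested genes in grey and the 31 proteasome subunits in red. The red steps span a narrow range, 0.13 to 0.94 with curcumin, at the right of the middle of the grey curve.

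Genes that work with the proteasome were taken from 4 lists of 48 genes, 45 of which were tested. Among the immunoproteasome subunits and regulators (8 of 9 tested), 1 was called higher with LPS and 3 with curcumin on the 75th percentile scale. Of all genes, 4.12% were called higher with LPS and 21.9% with curcumin on that scale. Psmb10, the interferon-inducible replacement of Psmb7, lay at 5.73, 5.41 and 5.11 in untreated cells and at 6.61, 6.58 and 6.08 with LPS, without overlap (1.01 ± 0.23, adjusted p = 0.0288). On the spike-in scale its change was 0.73 ± 0.32 (adjusted p = 0.29). Psmf1, a proteasome inhibitor protein, lay at 1.56, 1.63 and 1.68 in untreated cells and at 2.49, 2.45 and 2.77 with curcumin (0.95 ± 0.23, adjusted p = 0.0164). On the spike-in scale its curcumin change was -0.16. Its LPS+curcumin replicate 2 had no value because the spot was an outlier. Of the assembly factors (8 of 9 tested), Psmd10, the chaperone gankyrin, lay at 2.15, 1.78 and 1.76 in untreated cells and at 2.90, 3.33 and 2.86 with LPS (1.13 ± 0.24, adjusted p = 0.0164). With both agents it changed by 1.18 ± 0.24 (adjusted p = 0.00747), and by 1.38 ± 0.22 (adjusted p = 0.000505) without LPS+curcumin replicate 1. Against the spike-in probes its change with LPS was 0.86 ± 0.25 (adjusted p = 0.101). On that scale it lay at 1.16, 0.81 and 0.46 in untreated cells and at 1.32, 0.77 and 0.85 with both agents, which overlap.

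Of the ubiquitin genes and receptors (17 of 18 tested), 4 were called higher and 1 lower with curcumin on the 75th percentile scale, and 0 higher and 3 lower on the spike-in scale, against 21.9% of all genes higher on the first scale and 42.4% lower on the second. Ubb, a polyubiquitin gene, lay at 7.37, 7.26 and 7.26 in untreated cells and at 8.42, 8.16 and 8.55 with curcumin (1.08 ± 0.26, adjusted p = 0.0122). Uba1, the main ubiquitin-activating enzyme, changed by 0.84 ± 0.23 (adjusted p = 0.0213). On the spike-in scale Ubb and Uba1 were at -0.03 and -0.27, and neither was called. With curcumin added to LPS, Ubb was called higher on the 75th percentile scale (0.82 ± 0.26, adjusted p = 0.0469). Without LPS+curcumin replicate 1 this change was 1.07 ± 0.22 (adjusted p = 0.00286). On the spike-in scale Ubb lay at 6.25, 6.04 and 6.27 with LPS and at 6.51, 5.95 and 6.34 with both agents, which overlap.

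Among 12 genes of transcriptional control and stress response, 4 were called higher and 1 lower with curcumin on the 75th percentile scale, against 0 higher and 7 lower on the spike-in scale (21.9% of all genes higher on the first and 42.4% lower on the second). Mafk, a small Maf partner of Nfe2l1 and Nfe2l2, lay at -0.30, -0.23 and -0.07 in untreated cells and at 1.01, 1.40 and 1.39 with curcumin (1.46 ± 0.29, adjusted p = 0.00547). Zfand2a, a stress-induced zinc finger protein that binds the proteasome, lay at 3.24, 2.94 and 3.15 and at 4.48, 4.53 and 4.87 (1.52 ± 0.38, adjusted p = 0.0154). With spike-in scaling Mafk and Zfand2a changed by 0.36 ± 0.23 and 0.41 ± 0.24 (adjusted p = 0.196 and 0.161). Bach1, a repressor at the same elements, was called higher with curcumin (0.995 ± 0.28, adjusted p = 0.0251) but was at -0.11 on the spike-in scale. It was also called higher with curcumin added to LPS (1.55 ± 0.28, adjusted p = 0.00595, and 1.56 ± 0.31, adjusted p = 0.00217, without LPS+curcumin replicate 1). On the spike-in scale Bach1 lay at -1.70, -2.02 and -1.46 with LPS and at -0.18, -0.69 and -1.87 with both agents, which overlap. Maff, another small Maf protein, was called higher with LPS on both scales (1.84 ± 0.23 and 1.56 ± 0.25, adjusted p = 0.000593 and 0.00489), and with LPS added to curcumin (1.58 ± 0.23, adjusted p = 0.02, and 1.68 ± 0.24, adjusted p = 0.0144, without that array).

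Nfe2l1 itself lay at 4.09, 3.78 and 3.85 in untreated cells and at 3.42, 3.41 and 3.04 with curcumin, all lower (-0.62 ± 0.31, adjusted p = 0.14). With LPS it was higher, at 4.57, 4.58 and 4.40, and with both agents it lay at 5.10, 3.97 and 3.68, the first value being that of replicate 1. On the spike-in scale it was called lower with curcumin (-1.73 ± 0.54, adjusted p = 0.0224), as were 42.4% of all genes. Nfe2l1 was singled out after its values were seen, as an activator of these genes.

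**Figure D5:**
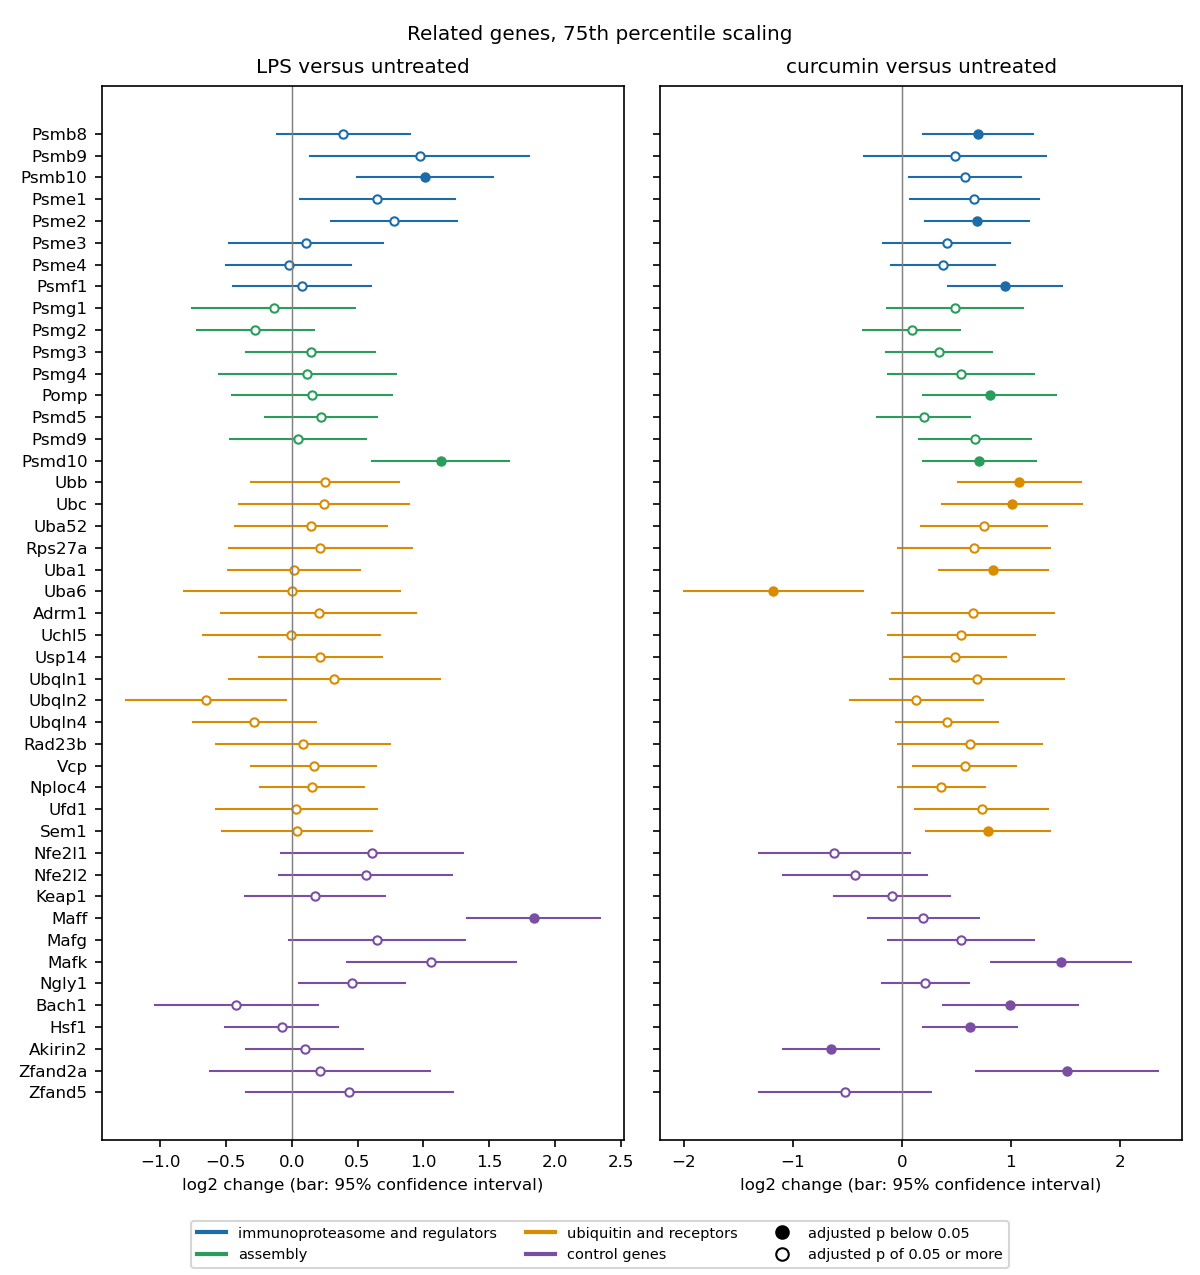
Log2 change on the 75th percentile scale (horizontal axes) of the 45 tested related genes with LPS (left) and with curcumin (right), with 95% confidence intervals from limma, coloured by list; filled points have an adjusted p below 0.05. Maff, Psmd10 and Psmb10 are filled on the left, and all ubiquitin and receptor genes except Uba6 lie right of 0 on the right.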

How the data were processed

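Total RNA of 12 BV-2 samples was Cy3-labelled and measured on Agilent arrays of 1 colour, per the labels. The authors deposited scanner files with spot intensities on a linear scale, already background-subtracted, extracted with Agilent Feature Extraction 10.5.1.1 per the file headers and 9.1 per the submitters' processing notes; the deposited value table holds the same intensities within 0.397%. Each array has 45018 spots, 1639 of them controls, and only the 12 arrays limit precision. Files carry no symbols: 25097 of 41174 probes were named through RefSeq accessions (GRCm38.p6).

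Outlier spots were dropped, spots of a probe averaged and the brightest probe kept per gene. Genes well above background on all 3 arrays of a group were tested on log2 intensities with limma 3.58.1 in R 4.3.3, fitting 4 group means over 12 arrays, two-sided, with Benjamini-Hochberg adjustment, for 6 comparisons. The code was tested on simulated data. Members and lists were chosen with earlier results of these data known. Values per array are given for the 2 highest and 2 lowest members of a comparison and, for curcumin, up to 2 per subcomplex with the smallest adjusted p; related genes are named where called, at most 6 per comparison, and 1 listed related gene is not reported here. Same-numbered arrays' deviations from their group means correlated at -0.02 to 0.71 (16 of 18 over 0.1). Differently numbered arrays' deviations correlated at -0.61 to 0.20 (10 of 36 over 0.1), so arrays of a slide tended to vary together. The main fit did not take the numbers as pairs, and the slide they share was fitted as a block in an alternative. Other alternatives were 3 scalings, normexp background correction with an offset of 50 (on median signals, since the files give no mean), no filter, the value table, only the groups compared, the mean of a gene's probes, and leaving out arrays. Combinations of spike-in scaling with the block or without LPS+curcumin replicate 1 were chosen after seeing the data.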

Additional observations from a re-analysis of the deposited data

Results flagged for a closer look

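Psma4, an alpha ring subunit of the gate, moved in opposite directions with LPS in the absence and the presence of curcumin on every slide, on the 75th percentile scale. Without curcumin the LPS array was higher on the 3 slides (0.18, 0.051 and 0.16, 75th percentile scale), and with curcumin it was lower (-0.38, -0.18 and -0.05). The value of -0.38 rests on LPS+curcumin replicate 1, the array that stood apart. The pattern was not present on the spike-in scale, where the LPS changes were -0.31, -0.39 and 0.26 without curcumin and 0.31, -0.33 and -0.31 with it, the same sign on slide 2 and the reverse order on slide 1. The opposite signs were not tested as such. The interaction estimate was -0.33 ± 0.33 SE (limma, adjusted p = 0.9999), and 0.04 ± 0.35 on the spike-in scale (adjusted p = 0.968).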

How the results depend on the processing

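For the 31 members, the counts called higher with curcumin (15), higher with both agents against untreated cells (5) and in the other comparisons (0) moved with the scaling. With curcumin, 0 were higher under spike-in scaling, median scaling and normexp (7.21%, 8.17% and 3.84% of all genes), 4 under quantile scaling and with no filter (11.6% and 16.0%), and 28 with only the groups compared (40.6%); 2 were lower under spike-in scaling (42.4%). With both agents against untreated cells, 0 were higher under spike-in scaling, median scaling, normexp and only the groups compared (6.23%, 6.51%, 0.336% and 2.76%), 1 under quantile scaling (6.54%) and 10 under always detected scaling (18.3%); 4 were lower under spike-in scaling (41.3%). With curcumin added to LPS, 1 was higher under quantile scaling (6.49%) and 3 under always detected scaling (16.5%). Leaving out an array or a replicate number gave 0 to 28 members higher with curcumin, 0 to 20 with curcumin added to LPS and 0 to 27 with both agents against untreated cells, and 0 in the other counts. Spike-in scaling without LPS+curcumin replicate 1 gave 0 higher, and 9, 6 and 17 lower in the same order. The cause of these differences was not tested.

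With the replicate block (the number is also the slide), 10 members were higher with both agents against untreated cells and 1 with curcumin added to LPS, against 5 and 0 without it. Spike-in scaling with the replicate block gave 2, 1 and 4 lower for curcumin, curcumin added to LPS and both agents against untreated cells, and 0 higher. The block moved no other count by over 1.5 times.

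Signs turned for these changes. With curcumin, spike-in scaling gave -0.17 for Psmd4, -0.19 for Psmc2, -0.67 for Psmd11, -0.98 for Psmd7, -0.20 for Psmd8, -0.35 for Psmb2, -0.21 for Psmb6, -0.38 for Psmc3, -0.30 for Psma5, -0.36 for Psma7, -0.027 for Ubb, -0.16 for Psmf1, -0.27 for Uba1 and -0.11 for Bach1. Quantile scaling gave -0.14 for Psmd11 and -0.27 for Psmd7, and averaging probes gave -0.024 for Psmd7. Median scaling gave -0.40 for Psmd11, -0.71 for Psmd7, -0.076 for Psmb2, -0.11 for Psmc3, -0.034 for Psma5 and -0.093 for Psma7. Normexp gave -0.38 for Psmd11, -0.66 for Psmd7, -0.0899 for Psmc3, -0.0061 for Psma5 and -0.095 for Psma7.

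With curcumin added to LPS, spike-in scaling gave -0.0034 for Psmc2, -0.072 for Psmb3 and -0.51 for Psmd12, median scaling -0.067 for Psmb3 and -0.51 for Psmd12, and quantile scaling -0.081 for Psmd12. With both agents against untreated cells, spike-in scaling gave -0.14 for Psmb6, -0.15 for Psmd8, -0.63 for Psmd6 and -0.84 for Psmd7, median scaling -0.011, -0.021, -0.49 and -0.70, and quantile scaling -0.13 for Psmd7. Normexp gave 0.40 for Psmc3 and 0.083 for Psmd13 with LPS added to curcumin, and interactions of 0.63 for Psma3, 0.18 for Psmd13 and 0.33 for Psmd8. The Psma3 interaction was 0.27, 0.16, 0.0059 and 0.0023 under spike-in, quantile, median and always detected scaling.

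Leaving out an array or a replicate number also turned signs near 0, with ranges of -0.0903 to 0.0498 for Psmd2 with LPS, -0.14 to 0.41 for Psmd12 and -0.26 to 0.0518 for Psmd7 with curcumin added to LPS, -0.12 to 0.15 for Psmd7 with LPS added to curcumin, and interactions of -0.15 to 0.17 for Psmd11 and -0.37 to 0.22 for Psma3. No proteasome spot was saturated, and depth is not defined for arrays.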
